A study of Mus musculus with 18 samples.

Results

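Clotting at the vessel wall and the removal of clots were followed through 9 genes of coagulation and fibrinolysis control, Vwf, F3, Tfpi, Thbd, Procr, F2r, Plat, Plau and Plaur. They were read from every probe set, a group of short probes on an array that measures 1 transcript, whose annotation gives 1 of these symbols and no other. Of 36701 probe sets on the 3 chips, 29131 had 1 gene symbol, and 18 of those belonged to these genes, which were 9 of 15964 genes measured in this way. Chip A held 13 of the 18, with at least 1 for each gene, chip B held 2 and chip C held 3. No probe set with several symbols held any of these genes.

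GFP-positive cells, which the labels call endothelial, were sorted by flow cytometry from pooled retinas of FVB/N mice at postnatal day 8, and GFP-negative cells of the same retinas served as the control. Both populations came from mice homozygous for a Tie2-GFP transgene, in which the promoter of the endothelial receptor gene Tek (Tie2) drives GFP, and that promoter is also known to be active in some blood-forming cells and leukocytes. Amplified RNA of each population was hybridised to Affymetrix MGU74v2 arrays (chips A, B and C), 3 for each population on each chip and 18 in all. Nothing in the labels says that the 3 arrays came from separate pools of animals, so the p-values cover the spread among the arrays alone, and that spread may be technical.

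Endothelial cells keep blood fluid and also hold what is needed to stop bleeding. Von Willebrand factor, stored in endothelial cells, ties platelets to injured walls, and tissue factor (F3), normally kept away from blood, starts the clotting cascade that ends in thrombin. Tissue factor pathway inhibitor (Tfpi) blocks that start, thrombomodulin (Thbd) and the endothelial protein C receptor (Procr) turn thrombin towards activating the anticoagulant protein C, and the receptor PAR-1 (F2r) lets cells sense thrombin. Fibrin clots are dissolved by plasmin, which tissue-type plasminogen activator (Plat) and urokinase (Plau) make from plasminogen, and Plaur is the receptor that holds urokinase on the cell surface.

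Array medians lay between 43.3 and 44.5 intensity units on chip A, between 40.7 and 44.6 on chip B and between 32.5 and 34.4 on chip C. The number of arrays limits the precision. GFP-positive replicate 3 stood apart on every chip, with Spearman rank correlations of 0.911 to 0.929 with GFP-positive replicates 1 and 2, whereas the other pairs of arrays within a population had 0.960 to 0.987. Of 12 endothelial markers 8 passed the test as higher in GFP-positive cells and 0 as lower, and Tek itself was 547, 537 and 240 in GFP-positive against 9.48, 8.58 and 6.62 in GFP-negative cells. The 4 that did not pass by their brightest probe set were Pecam1, Kdr, Egfl7 and Plvap, although Plvap had another probe set that passed as higher. Among 12 microglia and leukocyte markers 3 passed as higher, C1qb, Fcer1g and Laptm5, and 0 as lower, and the summed level of the list was 763 to 1607 in GFP-positive against 529 to 575 in GFP-negative cells. Its highest sum came from the array of GFP-positive replicate 3, and that rank rested on Csf1r. Csf1r read 930 there, against 37.3 and 41.2 on the other GFP-positive arrays and 94.3, 112 and 108 in GFP-negative cells. Ptprc, which encodes the pan-leukocyte protein CD45, was 29.3, 34.3 and 56.7 in GFP-positive against 34.5, 41.8 and 37.6 in GFP-negative cells. By the 1 probe set read for each gene, none of 9 platelet markers and none of 10 pericyte markers passed in either direction, although 2 pericyte markers, Rgs5 and Abcc9, each had another probe set that passed as lower. Sums on chip A covered only 4 of the 9 platelet and 9 of the 10 pericyte markers. They were 193 to 244 in GFP-positive against 240 to 260.3 in GFP-negative cells for platelets. For pericytes they were 276 to 375 in GFP-positive against 326 to 375 in GFP-negative cells. Of the 10 pericyte markers 9 had log2 differences below 0. Des and Notch3 were lower without overlap, as were 16% of all probe sets on the 3 chips. Pdgfrb read 24.01, 21.95 and 33.66 in GFP-positive against 31.97, 37.93 and 28.84 in GFP-negative cells. The platelet markers outside the sum differed by 0.20 (Treml1), 0.15 (Ppbp), 0.43 (Itga2b), 0.18 (Clec1b) and -0.17 (Tubb1) in log2. Treml1 read 85.4, 95.4 and 1476 in GFP-positive against 183, 294 and 165 in GFP-negative cells. No marker of these lists was listed at 0. Over all probe sets of the 3 chips 7.42% passed as higher and 8.86% as lower, so few or no calls in so short a list say little. The part that leukocyte RNA had in the results below was not tested.

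GFP-positive cells had far higher levels of Procr and, by 1 of its 2 probe sets, of Vwf. They had higher levels of Tfpi, Thbd and F2r by some or all of their probe sets, and a narrowly higher level of Plaur. Of the 18 probe sets 8, or 44.4%, passed as higher in GFP-positive cells and 0 as lower, at an adjusted p under 0.05 (limma, Benjamini-Hochberg adjustment over all probe sets of a chip). On chip A 7 of 13 passed as higher, where 9.09% of all probe sets did so and 9.25% passed as lower. The figures were 0 of 2 on chip B, where 9.6% passed as higher and 11.3% as lower, and 1 of 3 on chip C, where 3.4% passed as higher and 5.88% as lower. Vwf, Tfpi, Thbd, Procr, F2r and Plaur had at least 1 probe set that passed, and F3, Plat and Plau had none. The 18 log2 differences had a median of 0.52, against 0.05 over all 36701 probe sets. Without GFP-positive replicate 3 the count was 10 higher and 0 lower. Calls over all probe sets also grew in that fit, counted in both directions. They went from 2278 to 3469 on chip A, from 2596 to 3130 on chip B and from 1101 to 2976 on chip C. In sorted bulk samples, fewer cells of a type and less RNA per cell cannot be told apart, here and in all that follows.

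**Figure D1:**
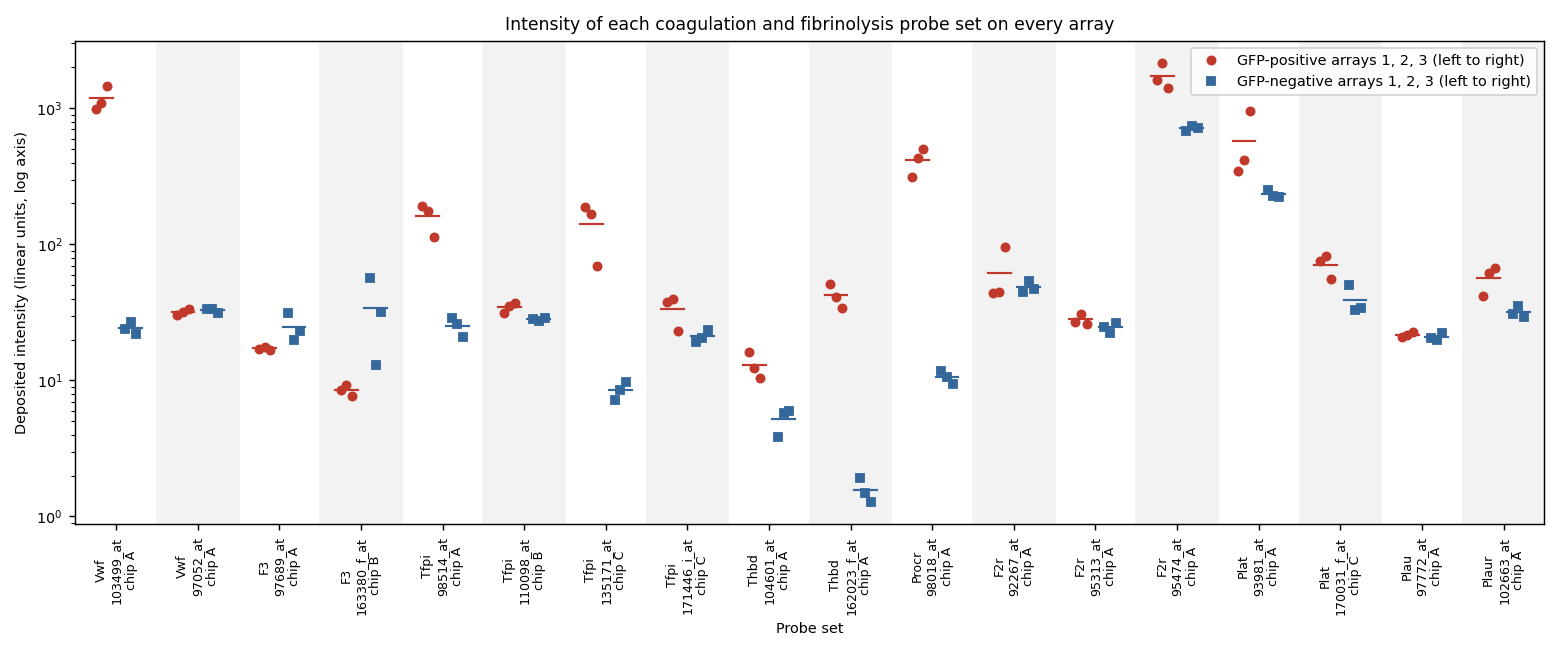
Intensity on every array (vertical axis, linear units on a log scale) of the 18 probe sets of the 9 genes (horizontal axis), with GFP-positive arrays as red circles, GFP-negative arrays as blue squares, arrays 1 to 3 from left to right and the mean of each population as a line. The GFP-positive arrays lie far above the GFP-negative ones for Vwf 103499_at (at least 996 in GFP-positive against at most 27.1 in GFP-negative cells) and Procr 98018_at (at least 315 in GFP-positive against at most 11.7 in GFP-negative cells), while F3 163380_f_at lies the other way.

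All 3 GFP-positive arrays were above all 3 GFP-negative arrays for 11 of the 18 probe sets and below them for 2, while 5 overlapped. Over all probe sets of the 3 chips the shares were 21.3% and 16%. On chip A the numbers were 8 above and 1 below of 13, where the same held for 19.8% and 17.2% of all probe sets. On chip B they were 1 and 1 of 2 (25.7% and 17.1% of all), and on chip C 2 and 0 of 3 (18.3% and 13.5% of all). The 2 below were both probe sets of F3. Of the probe sets without overlap 5 did not pass the test.

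Vwf showed the largest difference of the 9 genes. Probe set 103499_at on chip A read 996, 1098 and 1459 in GFP-positive cells, against 23.7, 27.1 and 22.1 in GFP-negative cells. The lowest GFP-positive array was thus 36.8 times the highest GFP-negative one, and the means were 1184 ± 243 and 24.3 ± 2.53 (SD, n = 3 arrays each). The log2 difference, GFP-positive minus GFP-negative after 16 was added to each intensity, like every log2 difference here, was 4.88 (SE 0.15, 95% confidence interval 4.51 to 5.25, adjusted p = 3.333e-05, limma). Adding 16 understates the change of dim probe sets. GFP-negative intensities of this probe set lay below 46.4, the median over the probe sets of chip A, as did those of Procr, and neither was shown to exceed background, so such ratios describe the deposited intensities alone.

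The other Vwf probe set, 97052_at on chip A, did not show this. It read 30.5, 32.0 and 33.5 in GFP-positive against 33.3, 33.7 and 31.1 in GFP-negative cells. The populations overlapped, all 6 arrays lay below the chip median, and the log2 difference was -0.02 (interval -0.18 to 0.14, adjusted p = 0.8723, limma). The 2 probe sets of Vwf therefore disagreed, and their intervals did not meet. Platelets also carry Vwf protein, and the log2 differences of the 9 platelet markers, none of which passed, ran from -0.30 for Pf4 to 0.43 for Itga2b, with 4 above 0 and 5 below. Pf4 read 23.5, 24.5 and 34.0 in GFP-positive against 38.9, 39.4 and 33.4 in GFP-negative cells (adjusted p = 0.136, limma). Itga2b and Clec1b were higher without overlap, and Gp9 was lower without overlap. The test of Itga2b passed once GFP-positive replicate 3 was left out (0.48, adjusted p = 0.04325, limma). Of 5 markers of red blood cells 1 passed as higher, Hbb-b2 (1.27, adjusted p = 0.02233, limma), and 0 as lower. It read 74.5, 39.0 and 27.6 in GFP-positive against 8.84, 8.36 and 9.74 in GFP-negative cells. The others ran from -0.06 for Slc4a1 to 0.37 for Hba-a1. The part of platelet or other blood cell RNA in the Vwf value was not tested.

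F3, the trigger of clotting, was the 1 gene of the 9 whose probe sets all had lower means in GFP-positive cells, and neither passed. Probe set 163380_f_at on chip B read 8.52, 9.27 and 7.73 in GFP-positive cells, against 56.8, 12.9 and 32.1 in GFP-negative cells. The GFP-negative arrays spread widely, with a mean of 8.51 ± 0.77 in GFP-positive and 33.9 ± 21.98 in GFP-negative cells (SD, n = 3 each), and the log2 difference was -0.93 (interval -1.67 to -0.19, adjusted p = 0.08054, limma). Without GFP-negative replicate 2, the dimmest of its population, it passed at -1.27 (adjusted p = 0.01299, limma). The suffix f marks probe sets whose probes can match several related sequences.

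Probe set 97689_at, on chip A, read 17.0, 17.7 and 16.9 in GFP-positive against 31.5, 19.8 and 23.0 in GFP-negative cells. The populations did not overlap here either, but all 6 arrays lay below the chip median, and the log2 difference was -0.29 (interval -0.57 to -0.01, adjusted p = 0.1573, limma). On both chips GFP-negative replicate 1 was the brightest array for F3 and replicate 2 the dimmest of that population.

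Tfpi, the inhibitor of the tissue factor complex, was higher in GFP-positive cells by 2 of its 4 probe sets. On chip A, 98514_at read 190, 177 and 114 in GFP-positive cells, against 28.6, 25.9 and 21.0 in GFP-negative cells, or 161 ± 40.7 against 25.2 ± 3.87 (SD, n = 3 each). Its log2 difference was 2.08 (SE 0.19, interval 1.61 to 2.54, adjusted p = 0.00113, limma). On chip C, 135171_at read 187, 167 and 68.9 in GFP-positive cells, against 7.22, 8.47 and 9.81 in GFP-negative cells, with a log2 difference of 2.58 (SE 0.33, interval 1.78 to 3.38, adjusted p = 0.006738, limma). On both probe sets GFP-positive replicate 3 was the dimmest of its population, at 0.621 and 0.389 times the mean of replicates 1 and 2.

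The remaining Tfpi probe sets were dimmer. Probe set 171446_i_at on chip C read 37.6, 39.4 and 23.1 in GFP-positive against 19.2, 20.5 and 23.6 in GFP-negative cells. Only GFP-positive replicate 3 fell within the GFP-negative range, and the log2 difference of 0.40 did not pass (adjusted p = 0.1718, limma). Without that array it passed at 0.56 (adjusted p = 0.005985, limma). Probe set 110098_at on chip B read 31.5, 35.0 and 36.8 in GFP-positive against 28.3, 27.3 and 28.8 in GFP-negative cells, a log2 difference of 0.19 that did not pass (interval -0.01 to 0.40, adjusted p = 0.1644, limma) although the populations did not overlap.

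Procr, the receptor that presents protein C to thrombomodulin, differed almost as much as Vwf. Its 1 probe set, 98018_at on chip A, read 315, 433 and 503 in GFP-positive cells, against 11.7, 10.7 and 9.34 in GFP-negative cells. The lowest GFP-positive array was 27.0 times the highest GFP-negative one. Means were 417 ± 94.9 and 10.6 ± 1.17 (SD, n = 3 each), and the log2 difference was 4.003 (SE 0.17, interval 3.59 to 4.42, adjusted p = 7.334e-05, limma).

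Thbd, which encodes thrombomodulin, the partner of Procr in this pathway, passed on both of its probe sets, both on chip A and both dim. Probe set 162023_f_at read 51.5, 40.9 and 34.3 in GFP-positive cells, against 1.93, 1.49 and 1.28 in GFP-negative cells. The means were 42.2 ± 8.65 in GFP-positive and 1.57 ± 0.33 in GFP-negative cells (SD, n = 3 each), and the log2 difference was 1.72 (SE 0.12, interval 1.43 to 2.01, adjusted p = 0.0004198, limma). The GFP-negative values lay far below the chip median and were not shown to exceed background, so the size of the change is not defined, and the log2 difference was 4.06 with 1 added and 0.69 with 64 added. Probe set 104601_at read 16.1, 12.3 and 10.4 in GFP-positive against 3.84, 5.79 and 5.93 in GFP-negative cells, with a log2 difference of 0.45 (SE 0.10, interval 0.21 to 0.68, adjusted p = 0.02613, limma). All its arrays lay below the chip median, and its call ended without GFP-positive replicate 1 or 2 or without any single GFP-negative array (adjusted p = 0.05475 to 0.09874, limma).

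F2r, the thrombin receptor PAR-1, was bright in both populations by probe set 95474_at on chip A. It read 1628, 2168 and 1421 in GFP-positive cells, against 680, 741 and 715 in GFP-negative cells, or 1739 ± 386 against 712 ± 30.8 (SD, n = 3 each). The populations did not overlap, and the log2 difference was 1.25 (SE 0.16, interval 0.86 to 1.64, adjusted p = 0.003795, limma). GFP-negative cells thus also gave a level many times the chip median, unlike those for Vwf and Procr.

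The other F2r probe sets, also on chip A, did not pass. Probe set 92267_at read 43.6, 44.8 and 95.4 in GFP-positive against 44.7, 53.9 and 47.2 in GFP-negative cells, a log2 difference of 0.20 (adjusted p = 0.6743, limma). Its sign rested on GFP-positive replicate 3, without which it was -0.10 (adjusted p = 0.4346, limma). Probe set 95313_at read 27.1, 31.0 and 26.1 in GFP-positive against 24.8, 22.4 and 26.4 in GFP-negative cells, a log2 difference of 0.12 (adjusted p = 0.3797, limma).

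**Figure D2:**
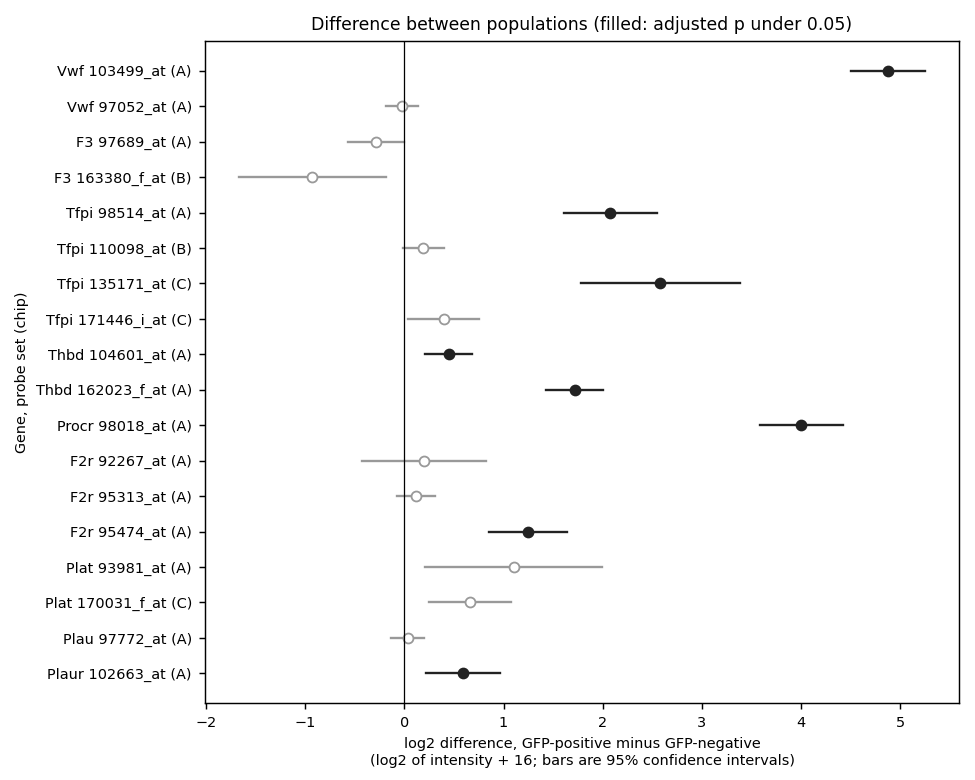
Log2 difference of each probe set, GFP-positive minus GFP-negative with 16 added to each intensity (horizontal axis), with its 95% confidence interval from limma, filled where the adjusted p was under 0.05. Vwf 103499_at and Procr 98018_at lie at 4.88 and 4.003, the other calls between 0.45 and 2.58, and both F3 probe sets lie below 0 with open points.

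RefSeq promoter windows of build GRCm38.p6 were at hand for 5 of the 9 genes. Shown here are the 250 bases before the start of Procr, Tfpi and F2r, which were higher in GFP-positive cells, and of F3, which was not, so that their letters can be set beside those values. The windows of Plaur, whose call was narrow, and of the second Tfpi start were searched but are not printed. They lie at chr2:155750967-155751216 (+ strand) for Procr, chr2:84476760-84477009 (- strand) for the more upstream of the 2 starts of Tfpi, chr13:95618467-95618716 (- strand) for F2r and chr3:121723287-121723536 (+ strand) for F3. Each is printed 5′ to 3′ on the strand of its gene. Capitals mark 3 motifs searched on both strands, TGANTCA (bound by AP-1), GGAAG (the core bound by ETS factors) and GGGCGG (the GC box).
Procr: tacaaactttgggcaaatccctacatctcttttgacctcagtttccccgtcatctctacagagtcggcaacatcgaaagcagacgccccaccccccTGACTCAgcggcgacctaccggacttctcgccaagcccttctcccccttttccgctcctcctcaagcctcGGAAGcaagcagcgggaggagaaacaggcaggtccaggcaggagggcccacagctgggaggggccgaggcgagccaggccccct
Tfpi: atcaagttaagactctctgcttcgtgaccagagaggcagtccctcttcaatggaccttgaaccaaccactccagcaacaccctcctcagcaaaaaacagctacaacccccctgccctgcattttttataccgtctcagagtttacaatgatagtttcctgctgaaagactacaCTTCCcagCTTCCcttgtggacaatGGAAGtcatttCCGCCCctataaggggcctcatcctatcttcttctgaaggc
F2r: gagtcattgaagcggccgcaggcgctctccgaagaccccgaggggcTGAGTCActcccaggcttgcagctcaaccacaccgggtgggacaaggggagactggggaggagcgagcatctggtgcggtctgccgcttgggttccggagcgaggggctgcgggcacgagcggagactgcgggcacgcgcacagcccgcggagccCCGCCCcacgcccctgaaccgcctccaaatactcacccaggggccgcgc
F3: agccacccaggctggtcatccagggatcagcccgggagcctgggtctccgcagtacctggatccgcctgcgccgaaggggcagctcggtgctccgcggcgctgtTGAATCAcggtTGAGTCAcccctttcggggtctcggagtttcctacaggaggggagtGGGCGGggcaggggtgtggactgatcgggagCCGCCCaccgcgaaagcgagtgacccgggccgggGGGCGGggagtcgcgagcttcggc
TGANTCA occurred 1 time in Procr, 2 times in F3, 1 time in F2r and 0 times in Tfpi, and 6.75% of all 32851 promoter windows of this length held it. GGAAG occurred 3 times in Tfpi, 1 time in Procr and 0 times in F2r and F3 (64.1% of all windows held it), and GGGCGG 1 time each in Tfpi and F2r, 3 times in F3 and 0 times in Procr (32.7% of all). The window of Plaur held 1 AP-1 motif, 4 ETS cores and 3 GC boxes, and that of the second Tfpi start 0 AP-1 motifs, 3 ETS cores and 1 GC box. No 2 matches overlapped in the 4 windows printed. A match is a description of the letters and not a binding site.

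Plat, tissue-type plasminogen activator, had higher means in GFP-positive cells on both of its probe sets without overlap, and neither passed. Probe set 93981_at on chip A read 349, 417 and 957 in GFP-positive cells, against 251, 227 and 223 in GFP-negative cells. GFP-positive replicate 3 was 2.50 times the mean of replicates 1 and 2, and the log2 difference was 1.10 with a wide interval (SE 0.36, 0.21 to 2.00, adjusted p = 0.09637, limma). Without that array the difference was smaller and passed, at 0.67 (adjusted p = 0.008326, limma). On chip C, 170031_f_at read 75.0, 82.3 and 56.1 in GFP-positive against 50.4, 32.7 and 33.9 in GFP-negative cells, a log2 difference of 0.67 (interval 0.25 to 1.08, adjusted p = 0.06904, limma). It too passed without GFP-positive replicate 3, at 0.80 (adjusted p = 0.0143, limma). That array was the brightest of its population on the chip A probe set and the dimmest on the chip C one.

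Plau, the other activator, showed no detectable difference. Its 1 probe set, 97772_at on chip A, read 20.8, 21.4 and 22.9 in GFP-positive cells, against 20.4, 19.7 and 22.4 in GFP-negative cells. All arrays lay below the chip median, the populations overlapped, and the log2 difference was 0.03 (SE 0.07, interval -0.13 to 0.20, adjusted p = 0.7992, limma). No difference was measurable at this dim level.

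Plaur, the urokinase receptor, passed narrowly. Its 1 probe set, 102663_at on chip A, read 41.6, 61.2 and 67.5 in GFP-positive cells, against 30.7, 35.1 and 29.1 in GFP-negative cells. The populations did not overlap, and the log2 difference was 0.60 (SE 0.15, interval 0.22 to 0.97, adjusted p = 0.0456, limma). The call ended without GFP-positive replicate 2 or 3 and without any single GFP-negative array (adjusted p = 0.05638 to 0.1566, limma). Plaur is also known from microglia and other myeloid cells. Of the 12 microglia and leukocyte markers 9 did not pass. These were Cd14 (-0.28), Tyrobp (-0.01), Cx3cr1 (-0.01), Aif1 (0.01), Itgam (0.03), Ptprc (0.03), C1qa (0.16), Csf1r (0.24) and Cd68 (0.28). Among these C1qa was higher without overlap. The 3 higher ones were C1qb, Fcer1g and Laptm5. Fcer1g read 175, 366 and 116 in GFP-positive against 58.9, 58.0 and 61.4 in GFP-negative cells. Laptm5 read 185, 147 and 133 in GFP-positive against 42.8, 42.3 and 39.5 in GFP-negative cells. The part of such cells in the Plaur value was not tested.

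**Figure D3:**
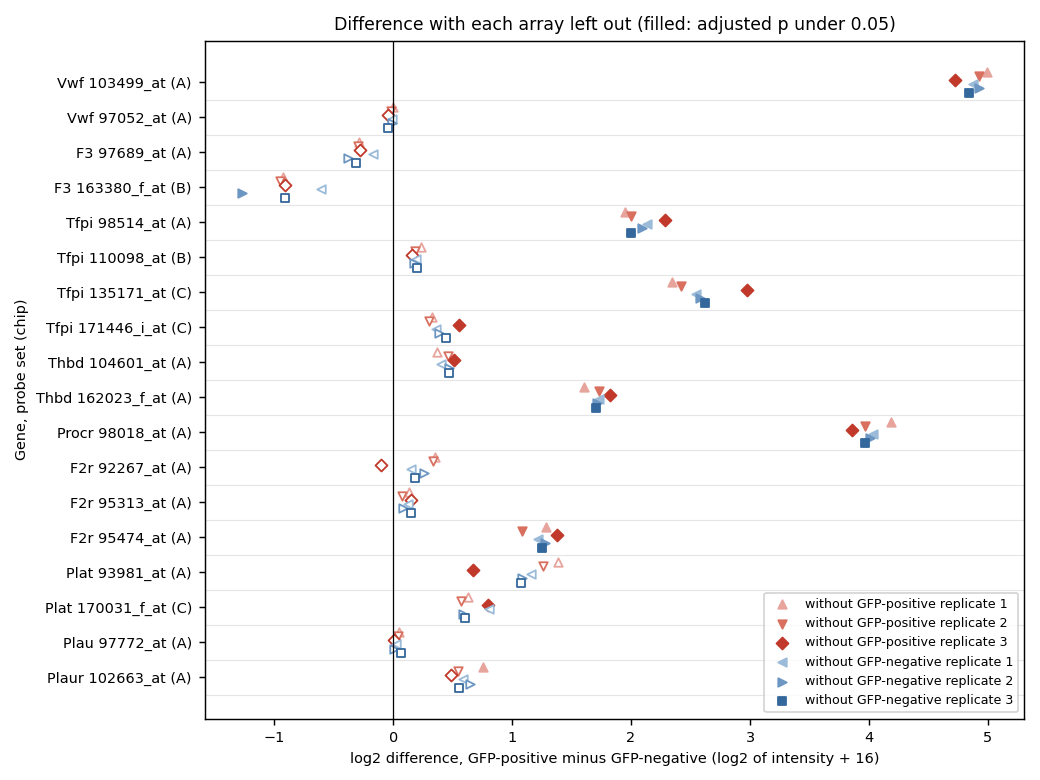
Log2 difference of each probe set, GFP-positive minus GFP-negative (horizontal axis, log2 of intensity plus 16), with each of the 6 arrays of a chip left out in turn, red for GFP-positive and blue for GFP-negative arrays, filled where the adjusted p was under 0.05. Vwf 103499_at, Procr, Tfpi 98514_at and 135171_at, Thbd 162023_f_at and F2r 95474_at keep filled points throughout, while Plat 93981_at passes only without GFP-positive replicate 3, at 0.67.

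GFP-positive replicate 3 did not move these genes in 1 direction. Among the GFP-positive arrays it was the brightest for 8 of the 18 probe sets and the dimmest for 10. The largest departures from the mean of replicates 1 and 2 were those of Plat 93981_at, at 2.50 times, and Tfpi 135171_at, at 0.389 times.

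For each gene with a call, the probe sets most like its brightest called one in pattern were sought among those with another single symbol on the same chip, by the root mean square distance of log2 values centred on each probe set's mean over the 6 arrays, of which 3 held GFP-positive and 3 GFP-negative cells. For Vwf 103499_at they were Lcp1 (distance 0.09), Emcn (0.16) and Cdh5 (0.29), among 10831 candidates. Emcn and Cdh5 encode the endothelial surface proteins endomucin and VE-cadherin, and Lcp1 encodes plastin 2, which bundles actin and is a known leukocyte protein. Those nearest to Procr were Lama4 (0.07), a laminin chain of vessel basement membranes, the amino acid transporter gene Slc38a5 (0.10) and Kank3 (0.11). The list for Tfpi 98514_at held the proliferation marker Mki67 (0.08), AU021092 (0.11) and the phosphatase gene Ptpre (0.12), and that for Thbd 162023_f_at held Capzb (0.03), Sft2d1 (0.04) and Rbms1 (0.06). Nearest to F2r 95474_at were Polr2c (0.05), Cd200 (0.06) and Mfng (0.07), and to Plaur Klhl21 (0.07), Rps28 (0.08) and Tomm70a (0.08). With 2 populations of 3 arrays this distance is set mostly by the size of the difference.

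Other genes of clotting, clot removal and platelet adhesion were read from a list of 64, of which 55 had a probe set with 1 symbol, each taken from its brightest probe set on the first chip that held it. In this list 7 genes, or 12.7%, rose in GFP-positive cells and 2, or 3.64%, fell, where 7.42% and 8.86% of all probe sets on the 3 chips passed as higher and lower. On chip A, where 47 of the 55 were read, 6 rose and 2 fell, against 9.09% and 9.25% of that chip's probe sets. The median log2 difference was 0.09 over the 55 genes, against 0.05 over all probe sets. Of the 55 genes 28 lay below the chip median on all 6 arrays. Without GFP-positive replicate 3 the counts were 15 higher and 4 lower, which included all 7 and both 2 of the full fit. In that fit calls on chip A as a whole, in both directions, rose from 2278 to 3469 of 12422 probe sets. Passing without that array was therefore not particular to the genes named below.

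None of 15 procoagulant factors passed in either direction, among them prothrombin (F2), F5, F8, F10 and the fibrinogen chains Fga, Fgb and Fgg, most of which are made in the liver. Their log2 differences had a median of 0.08, and 14 of the 15 lay below the chip median on all arrays. The exception in level was F7, at 169 ± 23.4 in GFP-positive and 141 ± 13.1 in GFP-negative cells (SD, n = 3 each), with a log2 difference of 0.24 (adjusted p = 0.2556, limma) and a dim second probe set that did not pass either. Without GFP-positive replicate 3, F7 passed at 0.35 (adjusted p = 0.04063, limma), as did Fga at 0.39 (adjusted p = 0.02883) and Klkb1 at 0.48 (adjusted p = 0.006257). F8, a factor that endothelial cells are known to make, read 34.0, 30.8 and 28.0 in GFP-positive against 25.2, 27.7 and 26.1 in GFP-negative cells and did not pass (adjusted p = 0.2628, limma).

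Of 10 anticoagulants 2 rose. Anxa5, annexin A5, a phospholipid-binding protein that shields clotting surfaces, was 967 ± 135 in GFP-positive and 158 ± 25.4 in GFP-negative cells (SD, n = 3 each), a log2 difference of 2.50 (adjusted p = 0.0002683, limma). Of its 4 probe sets 2 passed, both higher. Tfpi2, a relative of Tfpi found in extracellular matrix, read 51.4, 49.4 and 26.9 in GFP-positive against 9.63, 11.8 and 11.8 in GFP-negative cells (1.08, adjusted p = 0.01138, limma). Pros1, the protein S cofactor of activated protein C, read 92.3, 76.0 and 50.6 in GFP-positive against 50.4, 29.2 and 32.5 in GFP-negative cells and did not pass (adjusted p = 0.08165, limma). Leaving out GFP-positive replicate 3 gave 0.92, which passed (adjusted p = 0.01945, limma).

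Among 10 genes of fibrinolysis 1 rose and 1 fell. Anxa2, a surface protein that gathers plasminogen and its tissue-type activator, read 662, 694 and 760.0 in GFP-positive cells, against 73.1, 71.7 and 64.04 in GFP-negative cells, a log2 difference of 3.07 (SE 0.08, adjusted p = 2.684e-05, limma), and its second probe set, on chip C, differed by 3.30 (adjusted p = 0.005839, limma). S100a10, the partner of annexin A2 in that complex, read 176, 121 and 75.3 in GFP-positive against 77.1, 38.0 and 34.0 in GFP-negative cells, and its log2 difference of 1.08 did not pass (adjusted p = 0.08944, limma). It passed without GFP-positive replicate 3, at 1.36 (adjusted p = 0.0278, limma), and 2 genes of this group then passed as lower, the plasmin inhibitor gene Serpinf2 (-0.40, adjusted p = 0.03365, limma) and the plasminogen receptor gene Plgrkt (-0.55, adjusted p = 0.04755, limma). Mrc2, a collagen receptor that associates with the urokinase receptor, did not pass by its chip A probe set (-0.03), but its other probe set, on chip B, did (0.73, adjusted p = 0.04129, limma). The gene that fell was Serpini1, neuroserpin, a neuronal inhibitor of tissue-type plasminogen activator, at 29.6 ± 2.07 in GFP-positive and 111 ± 19.0 in GFP-negative cells (-1.47, SE 0.12, adjusted p = 0.0008414, limma). Lrp1, a scavenger receptor that clears protease and inhibitor complexes, was 80.5 ± 4.29 in GFP-positive and 102 ± 15.2 in GFP-negative cells and did not pass (-0.28, adjusted p = 0.1637, limma).

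Endothelial enzymes that restrain platelets rose for 2 of 4 genes. Ptgis, prostacyclin synthase, read 365, 363 and 368 in GFP-positive cells, against 14.3, 20.0 and 14.4 in GFP-negative cells, a log2 difference of 3.57 (SE 0.09, adjusted p = 2.684e-05, limma). Entpd1, the ectonucleotidase CD39 that removes the platelet activator ADP, differed by 1.44 on chip A (adjusted p = 0.000955, limma) and by 2.09 on chip B (adjusted p = 0.0006543, limma). Nos3, endothelial nitric oxide synthase, read 42.0, 88.1 and 97.5 in GFP-positive against 38.0, 41.3 and 41.1 in GFP-negative cells without overlap, and did not pass (0.65, adjusted p = 0.1525, limma).

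In the group for platelet adhesion and the handling of von Willebrand factor 1 of 9 genes rose, and its probe sets disagreed. Stxbp5, a syntaxin-binding protein known to limit the release of von Willebrand factor from endothelial cells, was 87.1 ± 21.0 in GFP-positive and 38.8 ± 1.77 in GFP-negative cells on chip B (0.89, adjusted p = 0.009855, limma). On chip C its probe set 137084_at passed in the opposite direction, at 175 ± 32.3 in GFP-positive and 344 ± 34.1 in GFP-negative cells (-0.92, adjusted p = 0.01303, limma), and 2 further probe sets did not pass. Itgb3, an integrin chain of platelets and of endothelial cells, did not pass by its chip A probe set (0.09), but its probe set on chip B did (0.52, adjusted p = 0.01227, limma). The scavenger receptor gene Stab2, at 96.7 ± 10.3 in GFP-positive and 66.9 ± 10.1 in GFP-negative cells, missed the threshold (0.45, adjusted p = 0.0518, limma). It passed at 0.52 once GFP-positive replicate 3 was left out (adjusted p = 0.02744, limma). Neither of the protease-activated receptor genes F2rl2 and F2rl3 passed (0.13 and 0.12).

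Of 5 genes of the vitamin K cycle and of factor export 1 rose and 1 fell. Vkorc1, the vitamin K epoxide reductase that keeps clotting factor carboxylation going, was 321 ± 84.2 in GFP-positive and 131 ± 14.8 in GFP-negative cells (1.17, adjusted p = 0.00882, limma). Lman1, a cargo receptor that carries factors V and VIII out of the endoplasmic reticulum, was 472 ± 109 in GFP-positive and 906 ± 117 in GFP-negative cells (-0.93, adjusted p = 0.01695, limma), and its 4 other probe sets did not pass. Mcfd2, the partner of Lman1, was 150.1 ± 23.5 in GFP-positive and 111 ± 4.68 in GFP-negative cells without overlap and missed the threshold (0.37, adjusted p = 0.08618, limma). Leaving out GFP-positive replicate 3 gave 0.49, which passed (adjusted p = 0.008616, limma). The dimmer Mcfd2 probe sets on chips B and C overlapped between populations and did not pass in the full fit (0.10 and -0.03).

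**Figure D4:**
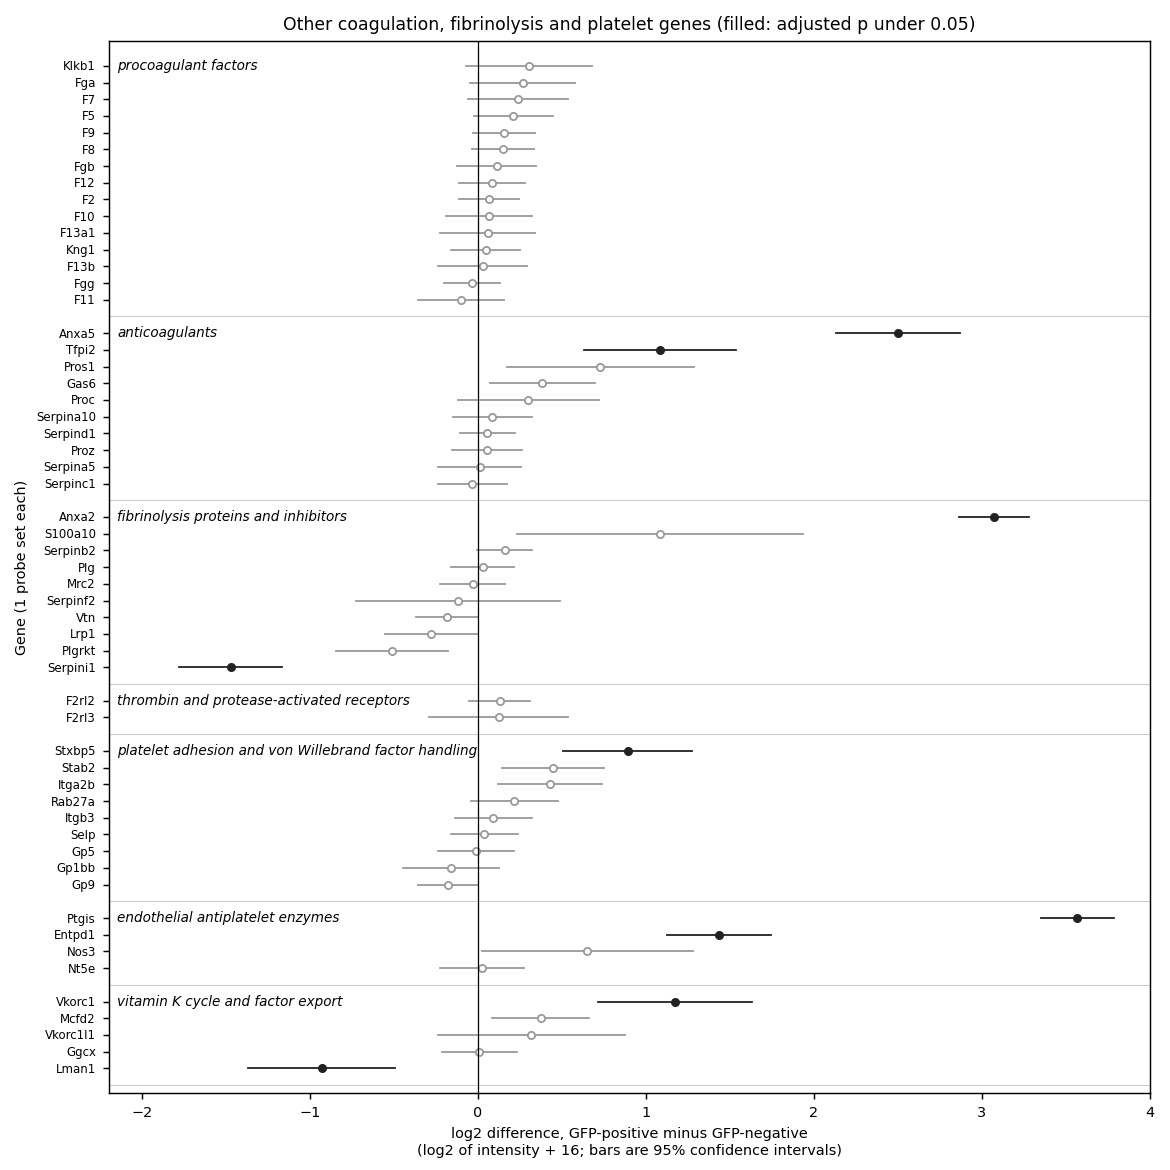
Log2 difference, GFP-positive minus GFP-negative with 16 added to each intensity (horizontal axis), with its 95% confidence interval, for the 55 other genes of clotting, fibrinolysis and platelet adhesion, grouped by role and filled where the adjusted p was under 0.05. Ptgis, Anxa2 and Anxa5 lie furthest to the right at 3.57, 3.07 and 2.50, Serpini1 furthest to the left at -1.47, and all 15 procoagulant factors are open points near 0.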

How the data were processed

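Sorted GFP-positive and GFP-negative retinal cells were measured on 18 Affymetrix MGU74v2 arrays. The sample titles gave the group and replicate number of each array. The values deposited by the authors are linear intensities per probe set. Their probe summary, background correction and normalization, which could change every difference, are not given in the sources used here. Array medians within a chip were close, so the intensities were kept. Detection calls were not used, so a dim value may be background. Gene names came from the platform annotation, and the symbols of all 9 genes were found in the RefSeq gene table.

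Each chip was fitted alone with limma 3.58.1 (lmFit, eBayes, two-sided) in R 4.3.3 on the log2 of intensity plus 16, without a replicate block, with Benjamini-Hochberg adjustment over the chip and a threshold of 0.05. The fit was tested on simulated data. The genes, lists and tests were chosen with earlier results of these data known. All probe sets of the 9 genes are named. From the further list the 8 called genes with the largest difference in each direction and the 3 brightest others were named, and every other gene of that list named in the text was added after its value was seen, as were the promoter motifs. From the marker lists those named besides Tek, Pecam1, Ptprc and Pf4 were also chosen after their values were seen. The check of whether replicate numbers pair arrays is given with the alternatives. Alternatives tried were 1 or 64 added in place of 16, quantile normalization, arrays centred on their medians, probe sets at or above the chip median alone, array weights, limma-trend with robust eBayes, adjustment over the 3 chips, a block for the replicate number, and each array left out in turn. Figures were drawn with matplotlib 3.10.9.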

Additional observations from a re-analysis of the deposited data

How the results depend on the processing

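Vwf 103499_at, Procr 98018_at, Tfpi 98514_at, Tfpi 135171_at and F2r 95474_at passed in 15 of 15 alternatives and Thbd 162023_f_at in 14 of 14. Dim probe sets gave no value where only probe sets at or above the chip median were kept, which left 5 member probe sets higher and none lower. With 1 added, F3 163380_f_at passed at -1.66 and was the 1 member probe set called lower. With 64 added, Plaur (0.33) and Thbd 104601_at (0.15) no longer passed. Adjustment over the 3 chips let Plat 170031_f_at pass at 0.67. Array weights let Plat 93981_at (0.82), Plat 170031_f_at (0.78) and Tfpi 171446_i_at (0.57) pass, turned F2r 92267_at to -0.017, and gave 15 higher genes of the further list and 3997, 4215 and 3924 calls on chips A, B and C, against 2278, 2596 and 1101. The cause of these changes was not tested.

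Same-numbered arrays did not all deviate together (correlations 0.2923, -0.2682 and -0.14 on chip A, with the same signs on chips B and C), so a pairing by number was not shown. The check cannot exclude one, as deviations were taken from means of 3 arrays and GFP-positive replicate 3 stood apart. On every chip the highest correlation was that of GFP-positive replicate 3 with GFP-negative replicate 2. It was 0.3789 on chip A, 0.4115 on chip B and 0.445 on chip C, and its cause was not tested. With the replicate block, calls on chip C numbered 641, and Plaur (0.60, adjusted p = 0.07622, limma) and Thbd 104601_at (0.45, adjusted p = 0.09646, limma) did not pass.

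With each array left out in turn, the 18 probe sets gave 6 to 10 calls higher and 0 to 1 lower, and the further list 6 to 15 higher and 1 to 4 lower. Chips A, B and C gave 1312 to 3469, 1652 to 3130 and 558 to 2976 calls, each highest without GFP-positive replicate 3. Log2 differences ranged from 0.49 to 0.76 for Plaur, 0.37 to 0.51 for Thbd 104601_at, 0.67 to 1.38 for Plat 93981_at, 0.57 to 0.81 for Plat 170031_f_at, 0.31 to 0.56 for Tfpi 171446_i_at, -1.27 to -0.61 for F3 163380_f_at, -0.10 to 0.35 for F2r 92267_at and -0.045 to 0.00092 for Vwf 97052_at, whose sign turned without GFP-positive replicate 1. Of the 18 probe sets 6 lay below their chip's median on all arrays, where signal over background limits what can be seen.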
